A study of Mus musculus with 6 samples.

Results

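AP-1 is a family of dimeric transcription factors, and 10 of its genes were followed here by bulk RNA sequencing of myeloid-derived suppressor cells (MDSCs) of wild-type and Pim1 knockout mice: Fos, Fosb, Fosl1, Fosl2, Jun, Junb, Jund, Atf3, Batf and Batf2. They were picked by symbol, and all 10 were found among the 24312 genes of the authors' deposited table. MDSCs are a mix of immature granulocytes and monocytes that hold T cells in check, and Pim1 encodes a cytokine-induced serine/threonine kinase. Every library came from cells of mice labelled C57BL/6 that were CD11b+ Gr1+, from femur marrow grown for 7 days with 40 ng/mL GM-CSF and 40 ng/mL IL-6, and genotype was the labelled difference, with 3 libraries of WT and 3 of Pim1-/- cells, called biological replicates. The number of mice, the knockout allele's construction and the source of the control animals were not stated in the labels.

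AP-1 proteins are basic leucine zipper (bZIP) factors that bind DNA as pairs. A Jun protein can pair with another Jun, or with a Fos, ATF or BATF protein, whereas Fos proteins need a Jun partner. Several of the genes are immediate early genes: they are transcribed within minutes of a growth factor, cytokine or stress signal that reaches them through MAP kinases, and their short-lived messengers fall again soon after. In myeloid cells AP-1 factors help set inflammatory and matrix-degrading programmes, and BATF proteins join interferon regulatory factors at shared sites.

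The table holds 1 value per gene and genotype, which the authors pooled over the libraries, so the spread between libraries is not shown. The values were read, from the column layout, as FPKM, a level per transcript length and per sequencing depth. Levels of different genes are set side by side on that reading. It is an assumption, because neither the unit nor the annotation behind the values was stated. A gene was called when its adjusted p (the deposited q-value) was under 0.05, and its error on the log2 scale was taken as the fold change over the deposited test statistic. Pim1 itself fell from 90.2 in wild type to 22.7 in the knockout in the authors' deposited table (log2 fold change -1.99, error 0.25, adjusted p = 0.000831). The Y-linked gene Ddx3y was at 2.56 and 0.0103 FPKM and Eif2s3y at 6.79 and 0.0191 FPKM in the authors' deposited table (adjusted p = 0.385 and 0.537), and the X-linked Xist, which female cells express, was at 5.21 and 7.21 FPKM there (adjusted p = 0.0262). Both pools thus held Xist, and Y-linked RNA was near 0 in the knockout pool. Taking the deposited test statistic as a standard normal z called Ddx3y and Eif2s3y lower and left Xist uncalled. The part of sex in the AP-1 values was not tested. None of the AP-1 genes lies on chromosome 17, where Pim1 is (0 of 10). Itgam, which encodes CD11b, was at 139 and 152 and Ly6c2, a Gr1 antigen gene, at 392 and 997 FPKM in the authors' deposited table. Ly6g was not found there under that symbol.

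Promoter sequence is shown for the 3 genes with the largest called falls, Fos, Fosb and Junb, and for Jun, which was not called. The 150 bases before the RefSeq start (build GRCm38.p6, read 5′ to 3′ on the gene's strand) are chr12:85473740-85473889 on the plus strand for Fos and, on the minus strand, chr7:19310046-19310195 for Fosb, chr8:84978749-84978898 for Junb and chr4:95052223-95052372 for Jun. Capitals mark the letters TGACG, the core of the element bound by CREB and ATF factors, and CCAAT.
Fos: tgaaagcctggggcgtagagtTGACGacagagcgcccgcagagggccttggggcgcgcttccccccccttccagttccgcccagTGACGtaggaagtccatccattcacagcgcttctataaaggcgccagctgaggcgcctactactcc
Fosb: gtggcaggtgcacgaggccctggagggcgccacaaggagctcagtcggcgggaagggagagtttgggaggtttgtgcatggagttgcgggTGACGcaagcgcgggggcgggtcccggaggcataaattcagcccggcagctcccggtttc
Junb: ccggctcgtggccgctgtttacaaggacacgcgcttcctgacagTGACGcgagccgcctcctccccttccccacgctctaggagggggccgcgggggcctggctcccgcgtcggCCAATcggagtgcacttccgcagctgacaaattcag
Jun: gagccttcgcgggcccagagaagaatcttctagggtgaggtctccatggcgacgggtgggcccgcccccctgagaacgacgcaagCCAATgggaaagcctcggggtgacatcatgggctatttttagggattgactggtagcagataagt
Both strands were searched for TGACG, for CCAAT, for TGANTCA (the AP-1 site) and for the CArG box that serum response factor binds, and no matches in these windows shared a base. The letters TGACG stood 66 and 129 bases before the Fos start, 60 before that of Fosb and 106 before that of Junb. They were also found at Batf, 98 bases before the start, and on the reverse strand at Atf3. That made 5 of the 8 AP-1 genes with a promoter in the RefSeq table, against 13.3% of all 32851 promoters of that table. The RefSeq start was not always the gene start in GENCODE M21, the annotation used below. The Jund window ended at 70697738, well before the GENCODE start at 70698949. Those of Fosl2 and Atf3 lay inside the GENCODE genes, so these windows may not be the promoters in use. CCAAT was found at 2 of the 8, Jun and Junb (24.5% of all promoters), and neither TGANTCA (4.24%) nor the CArG box (0.916%) at any of them (0 of 8). Only the 150 bases before each start were searched, and only for these patterns. Sites further upstream or with other letters or spacing would be missed, so their absence from these genes was not shown. Genes that were called lower, called higher and not called thus all occur among those with TGACG. Without it were Jund, which was called lower, and Jun and Fosl2, which were not called. A match of letters is not a measured binding site.

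Fos, Junb, Jund and Fosb were lower in the Pim1 knockout, Batf was slightly higher, and Jun, Atf3, Fosl2 and Batf2 were not called. Of the 10 genes, 9 were tested, of which 4 fell and 1 rose in the authors' deposited table. Among all 11079 tested genes 6.73% fell and 6.79% rose (13.5% in either direction), and the median log2 fold change was -0.32 over the 9 tested AP-1 genes against 0.01 over all tested genes. With the deposited statistic taken as a standard normal z, Fos was called lower and no other AP-1 gene was (1 of 9), beside 3.31% of all genes in either direction, 1.47% lower and 1.85% higher. Called were 4 of the 8 AP-1 genes with a mean of at least 1 (13.4% of all such genes) and 3 of the 5 with a mean of at least 10 (14.6%). A q under 0.01 called 3 of 9 (8.78% of all genes) and a 1.5-fold minimum 3 of 9 (8.82%). The values come from a mixed population, in which fewer cells of a type and less RNA per cell cannot be told apart.

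**Figure D1:**
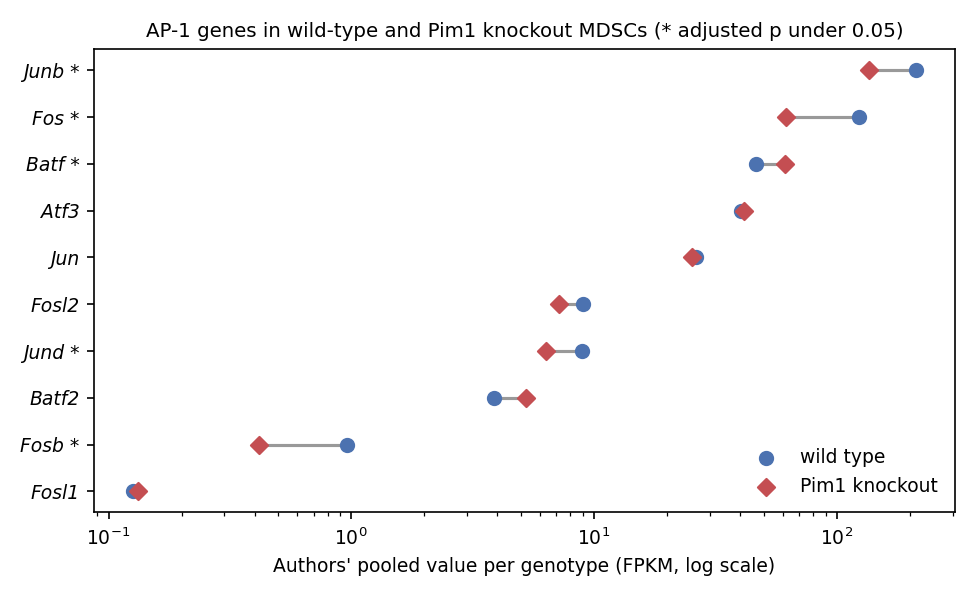
Values of the 10 AP-1 genes in wild type (circles) and Pim1 knockout (diamonds), each the authors' pooled value in FPKM on a log axis, ordered by the wild-type level. Junb (211 and 136) and Fos (123 and 61.9) are the most abundant, and a star marks the 5 called genes.

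The Fos proteins are the partners that make a stable AP-1 pair with Jun proteins. Fos, the immediate early gene after which these proteins are named, fell from 123 in wild type to 61.9 in the knockout in the authors' deposited table (1.99-fold lower, log2 fold change -1.0, error 0.24, adjusted p = 0.000831). The knockout level was thus 50.2% of the wild-type level, with a 95% interval of 36.1% to 69.8% from that error. Fos ranked 817th by level among tested genes in wild type and 1460th in the knockout, and 2.43% of tested genes had a lower fold change. Fos lies at chromosome 12, 85473890 to 85477273 on the plus strand in GRCm38 (GENCODE M21), with 4 exons and no other annotated gene overlapping it.

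Fosb, a close relative of Fos, had the largest fold change of the family but a low level. It fell from 0.964 to 0.419 FPKM in the authors' deposited table (log2 fold change -1.20, error 0.50, adjusted p = 0.00156). A pseudocount of 1 moved this fold change to -0.47. Fosl2, which encodes Fra-2, was at 8.98 and 7.19 FPKM in the authors' deposited table (log2 fold change -0.32, error 0.25, adjusted p = 0.139). Fosl1, which encodes Fra-1, was at 0.126 and 0.132 and was marked as not tested in the authors' deposited table. Neither Fra gene was therefore shown to differ, and the interval for Fosl2 runs from 56.8% to 113% of the wild-type level.

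Jun proteins pair with each other as well as with Fos proteins. Junb, often described as a brake on Jun and as a regulator of myeloid growth, was the most abundant AP-1 gene in both genotypes. It fell from 211 to 136 FPKM in the authors' deposited table, to 64.4% of wild type (log2 fold change -0.63, error 0.24, adjusted p = 0.000831). Jund, the member usually least dependent on acute signals, fell from 8.91 to 6.35 FPKM in the authors' deposited table (log2 fold change -0.49, error 0.29, adjusted p = 0.0272). Its 95% interval from the printed error, 48.2% to 105%, includes no change although the gene was called. The deposited p-value is smaller than that error would give, and how it was computed was not stated. Jun, the founding member, was at 26.3 and 25.3 FPKM in the authors' deposited table (log2 fold change -0.06, error 0.24, adjusted p = 0.873), and its interval runs from 69.2% to 133%.

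All 3 Jun genes have 1 exon in GENCODE M21, and each overlaps a gene on the other strand in that annotation. The positions listed in the authors' deposited table lie on the same chromosomes for all 10 AP-1 genes but overlap the GRCm38 gene for 2 of them, so the annotation behind the values may be another. Junb (chromosome 8, 84974484 to 84978718 on the minus strand in GRCm38) overlaps Prdx2, which was at 484 and 399.8 FPKM in the authors' deposited table (adjusted p = 0.169). Jund overlaps the antisense RNA Gm11175 and Jun the antisense RNA Junos. The strand setting of the counting was not stated, so reads of such a pair may not have been told apart and these values are uncertain.

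**Figure D2:**
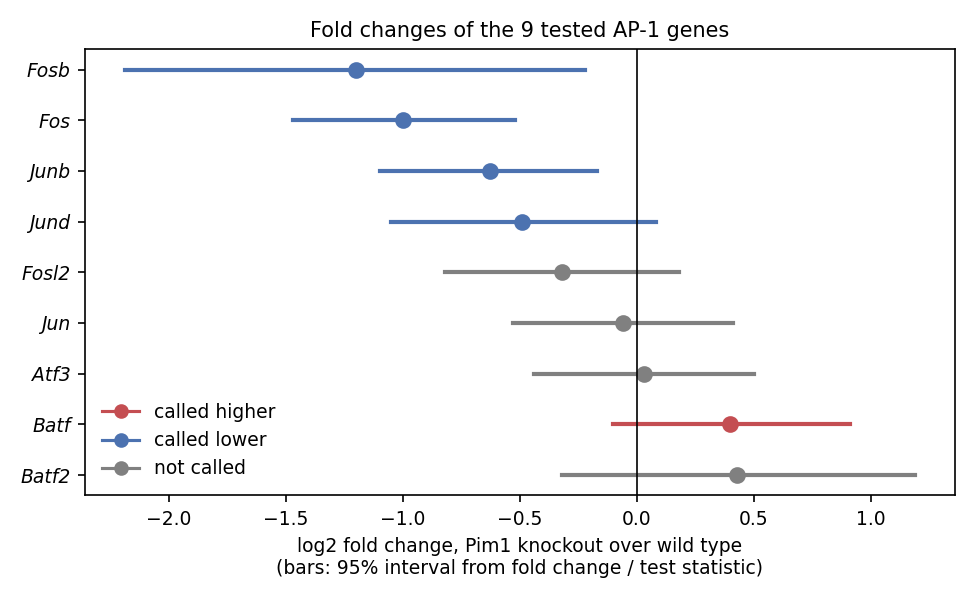
Log2 fold changes of the 9 tested AP-1 genes, Pim1 knockout over wild type, with 95% intervals from the fold change divided by the test statistic. The intervals of Fosb, Fos and Junb lie below 0, and those of Jund and Batf cross it although both genes were called.

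Atf3 is a stress-induced bZIP gene that in macrophages limits the transcription of inflammatory genes. Its level was 40.5 and 41.4 in the authors' deposited table (log2 fold change 0.03, error 0.24, adjusted p = 0.939). The interval runs from 73.5% to 142% of the wild-type level, so a fall as large as that of Fos lies outside it. BATF proteins lack the long activating part of Fos proteins and pair with Jun proteins in their place. Batf, needed for several T helper and dendritic cell fates, rose from 46.4 to 61.4 FPKM in the authors' deposited table (log2 fold change 0.40, error 0.26, adjusted p = 0.0469). Its interval, 93.3% to 188%, includes no change. Batf2, which interferon induces in macrophages, was at 3.88 and 5.24 FPKM in the authors' deposited table (log2 fold change 0.43, error 0.39, adjusted p = 0.216). Batf2 overlaps Arl2 on the other strand, which rose from 30.3 to 43.4 FPKM in the authors' deposited table (adjusted p = 0.0114). Reads of this pair, too, may not have been told apart, so the lower Batf2 values are uncertain.

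Fold changes within the family were set against each other for 8 pairs that were chosen with the values known, so the intervals are descriptions and not tests. Fos minus Jun was -0.94 on the log2 scale, with a combined error of 0.34 and an interval of -1.61 to -0.27. Fos minus Atf3 was -1.03, with an interval of -1.70 to -0.35. The interval of Fos minus Junb, -1.02 to 0.30, included 0, as did those of Junb minus Jun (-1.24 to 0.08), Fos minus Fosl2 (-1.36 to 0.01), Fosb minus Fos, Junb minus Jund and Batf minus Batf2.

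The 10 genes summed to 471 in wild type and 345 in the knockout, 73.4% of wild type. The Fos genes summed to 134 and 69.7, the Jun genes to 247 and 168, and the Batf genes to 50.3 and 66.7. Junb held 44.9% of the sum in wild type and 39.4% in the knockout, and Fos 26.2% and 17.9%. Batf held 9.85% and 17.8%, so that Batf RNA stood at 0.376 of the Fos level in wild type and at 0.992 of it in the knockout. The summed Fos genes were at 0.543 of the summed Jun genes in wild type and at 0.415 in the knockout. These sums have no test, and RNA levels do not give the amounts of the proteins or of their pairs.

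**Figure D3:**
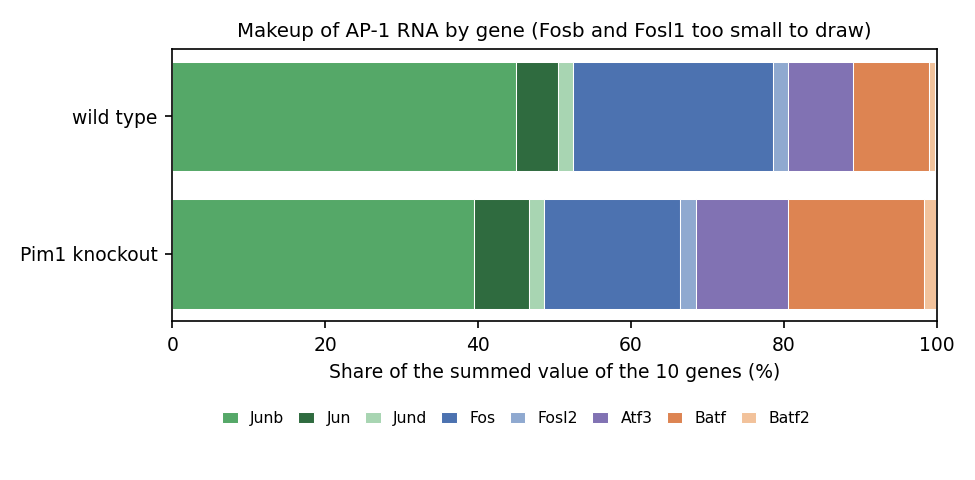
Share of each gene in the summed FPKM of the 10 AP-1 genes, in percent, for wild type (top bar) and Pim1 knockout (bottom bar). The Junb and Fos segments are narrower in the knockout (39.4% and 17.9%) and the Batf segment is wider (17.8% against 9.85%).

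Among 29 bZIP relatives of AP-1, 27 were tested, of which 1 rose and 2 fell in the authors' deposited table, a share near the 13.5% of all tested genes, with a median log2 fold change of 0.04. Maf, a large bZIP factor of macrophages, rose from 2.29 to 7.38 FPKM in the authors' deposited table (log2 fold change 1.69, error 0.31, adjusted p = 0.000831). Nfil3, a bZIP repressor that also guides innate lymphoid and dendritic cell development, fell from 51.0 to 29.8 FPKM in the authors' deposited table (log2 fold change -0.78, error 0.24, adjusted p = 0.000831). Cebpg, a dimer partner of C/EBP proteins, fell from 4.92 to 3.36 FPKM in the authors' deposited table (adjusted p = 0.0148).

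Of 29 tested genes of the MAP kinase cascade, whose kinases signal to AP-1, 1 rose and 0 fell in the authors' deposited table, beside 13.5% of all tested genes called, with a median log2 fold change of 0.06. The one was Mapk13, a p38 kinase gene, which rose from 3.68 to 11.3 FPKM in the authors' deposited table (log2 fold change 1.62, error 0.36, adjusted p = 0.000831). RNA values do not show whether these kinases were active. Of 13 tested nuclear activators of the Fos and Jun genes, 1 rose and 1 fell in the authors' deposited table (median -0.11), again near the 13.5% of all tested genes. Stat3, which IL-6 activates and which binds the Fos and Junb promoters, fell from 36.5 to 26.0 FPKM in the authors' deposited table (adjusted p = 0.00287), and the MADS-box factor gene Mef2c rose from 1.23 to 2.03 FPKM in the authors' deposited table (adjusted p = 0.00223). Neither was called with the deposited statistic of the authors' deposited table taken as a standard normal z (adjusted p = 0.455 and 0.387).

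The called feedback genes around AP-1 went both ways. Where 13.5% of all tested genes were called, 1 of 12 tested genes of AP-1 messenger and protein turnover fell and 0 rose in the authors' deposited table (median -0.04). It was Zfp36, which encodes tristetraprolin, a protein that binds AU-rich messengers such as that of Fos and hastens their decay, and it fell from 227 to 106 FPKM in the authors' deposited table (log2 fold change -1.10, error 0.24, adjusted p = 0.000831). Of 9 tested MAP kinase phosphatase genes 3 rose and 1 fell in the authors' deposited table (median 0.39), beside 6.79% and 6.73% of all tested genes. Dusp1, an immediate early gene whose product switches off p38 and JNK kinases, fell from 42.0 to 20.8 FPKM in the authors' deposited table (log2 fold change -1.01, error 0.26, adjusted p = 0.000831). Dusp6, specific for ERK kinases, rose from 33.2 to 53.0 FPKM in the authors' deposited table (log2 fold change 0.68, error 0.24, adjusted p = 0.000831), and Dusp4 rose from 0.211 to 1.06. Dusp7 was the other that rose, named because the count is small.

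**Figure D4:**
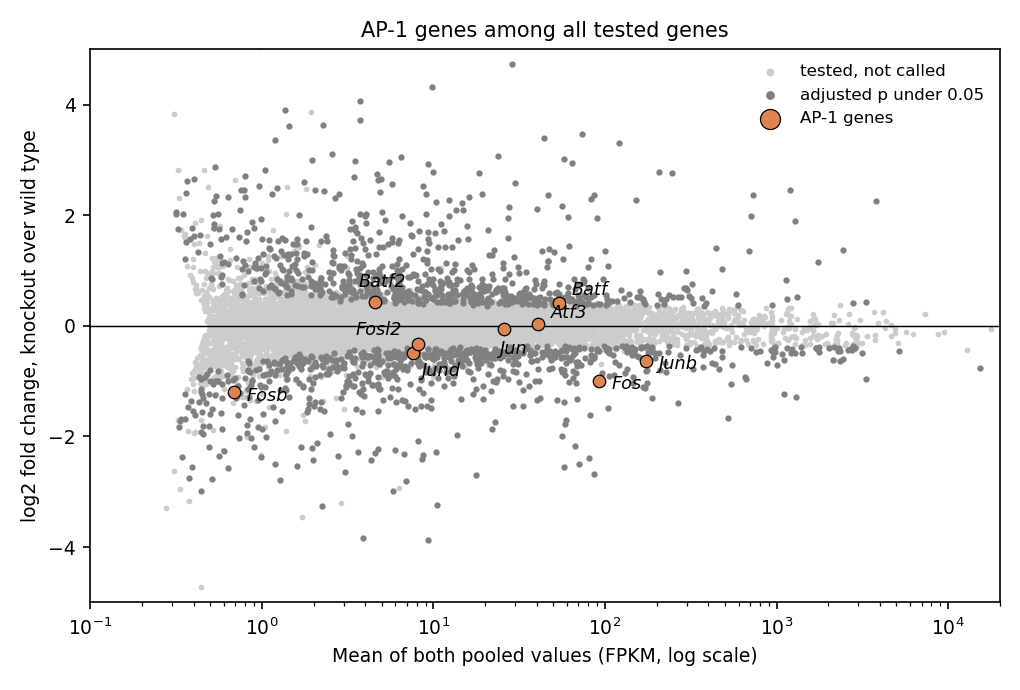
Log2 fold change against the mean of both pooled values (FPKM, log axis) for 11037 tested genes, with the 9 tested AP-1 genes in orange and 12 further tested genes beyond the axes. Fos and Junb sit below 0 among abundant genes, and Jun and Atf3 lie close to 0.

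Other immediate early genes fell more often than they rose. Of 16 tested, 6 fell and 1 rose in the authors' deposited table, with a median log2 fold change of -0.25. Among all tested genes 6.73% fell and 6.79% rose. The zinc finger factor genes Egr1 and Egr2 fell from 90.0 to 26.2 and from 45.7 to 20.4, and Ier2 fell from 137 to 73.2 FPKM in the authors' deposited table (adjusted p = 0.000831 for each). By comparison, the authors' deposited table lists Myc at 23.7 and 29.5 FPKM (adjusted p = 0.130) and Klf6 at 51.0 and 52.9 FPKM (adjusted p = 0.881), both named with their values known. The list was chosen with falls among such genes in these data already known, and it also holds genes that respond to how cells are handled. That limit also holds for the immediate early genes among the AP-1 members, such as Fos. The part of handling in these values was not tested.

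Genes reported elsewhere as AP-1 targets divided. Of 37 listed genes 29 were tested, of which 9 rose and 11 fell in the authors' deposited table, beside 6.79% and 6.73% of all tested genes. The median log2 fold change of the tested targets was -0.19. This list, too, was chosen with earlier results of these data known, so its counts are a description only. Itgax and Cd68 stand both in it and among the cell type markers below. The monocyte chemoattractant gene Ccl2 rose from 288 to 1135, Ccnd1, which encodes the cell cycle protein cyclin D1, rose from 3.82 to 12.6, and Il1b fell from 123 to 40.3 FPKM in the authors' deposited table (adjusted p = 0.000831 for each). Genes of the extracellular matrix were on both sides and were named with their values known. The elastase gene Mmp12 fell from 1547 to 662, Fn1, which encodes fibronectin, from 386 to 147 and the metalloproteinase inhibitor gene Timp1 from 97.9 to 39.0, whereas Mmp9 rose from 10.4 to 21.0 FPKM in the authors' deposited table (adjusted p = 0.000831 for each). Taken as a standard normal z, the deposited statistic gave 3 targets higher and 6 lower, beside 1.85% and 1.47% of all genes. Spp1 of the list was marked as too deeply covered and was not tested, so its printed values, 0 in wild type and 9022 in the knockout, were not compared.

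Partners of BATF proteins and interferon-induced genes were set beside Batf and Batf2. Where 13.5% of all tested genes were called, 1 of 5 tested partner genes fell and 0 rose in the authors' deposited table. It was Irf4, an interferon regulatory factor gene, which fell from 10.5 to 7.22 FPKM in the authors' deposited table (log2 fold change -0.55, error 0.26, adjusted p = 0.00156), whereas Irf8 was at 54.8 and 52.7 (adjusted p = 0.873) there. Of 14 tested interferon-induced genes 13 rose and 1, Gbp2, fell in the authors' deposited table, beside 6.79% and 6.73% of all tested genes. The median log2 fold change of these 14 was 2.61, against 0.43 for Batf2. They were likewise chosen with earlier results of these data known. Rtp4 rose from 7.72 to 80.7, Irf7, a master regulator of type I interferon genes, from 5.07 to 42.5 and Oasl2 from 8.62 to 51.5 FPKM in the authors' deposited table (adjusted p = 0.000831 for each).

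**Figure D5:**
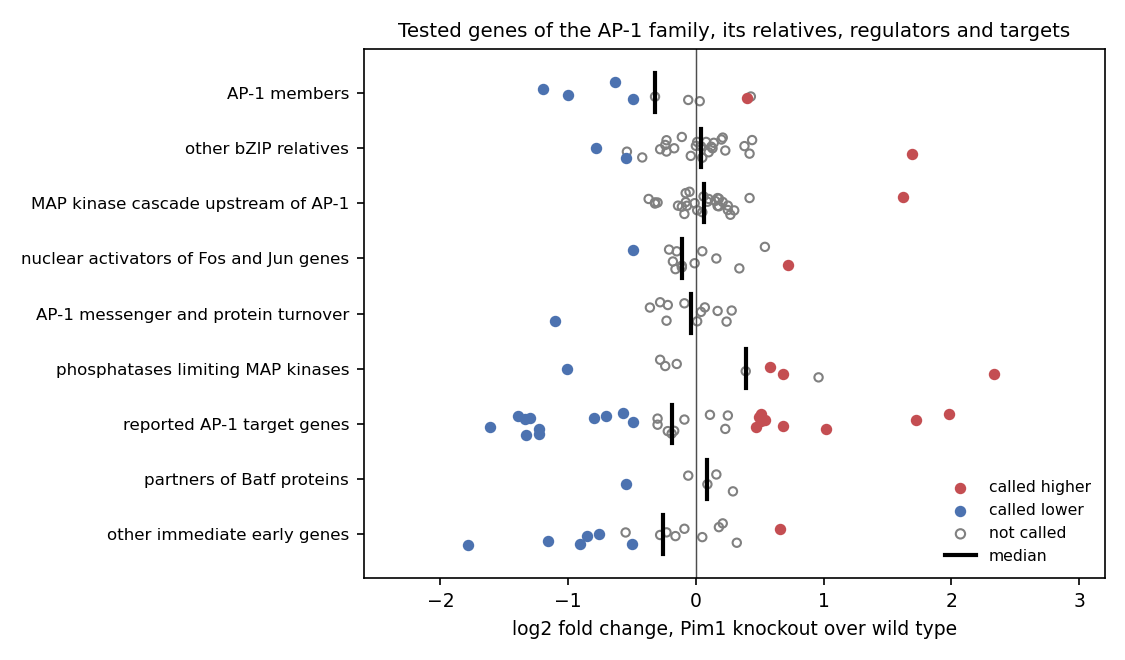
Log2 fold changes of the tested genes of the AP-1 family and 8 lists of relatives, regulators and targets, Pim1 knockout over wild type, with filled points for called genes and a bar for each list's median. The AP-1 median lies at -0.32, and the MAP kinase cascade sits near 0 with 1 called gene.

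Markers of cell types moved in the same comparison, in which 6.79% of all tested genes rose and 6.73% fell. Of 11 listed neutrophil markers Ly6g was not found. Of the 10 tested, 7 rose and 0 fell in the authors' deposited table. The summed value of the list was 2515 in wild type and 9405 in the knockout. S100a8 made 1308 and 6257 of it and S100a9 369 and 2029. The 3 not called were Cxcr2 (3.29 and 3.41), Retnlg (4.12 and 3.19) and Mmp8 (735 and 768 FPKM), named with their values known. Their deposited adjusted p was 0.925, 0.567 and 0.869. No stage of maturity was read from this list. Monocyte markers summed to 1065 and 1715, a rise mostly of Ly6c2 (392 and 997), and 4 of 8 rose and 0 fell, or 1 of 8 with the deposited statistic taken as a standard normal z, with Csf1r at 319.9 and 269.7 FPKM in the authors' deposited table. Macrophage markers summed to 4577 and 5224 (0 of 8 called), with C1qb at 1515 and 1756 and Cd68 at 898 and 970.5 FPKM in the authors' deposited table. Dendritic cell markers summed to 67.2 and 40.8 (2 rose and 1 fell of 4 tested): Itgax fell from 59.0 to 24.0 and Ccl22 rose from 5.45 to 10.3 FPKM in the authors' deposited table. Eosinophil, basophil and mast cell markers summed to 12.1 and 10.9 (1 rose and 1 fell of 4 tested), Kit rising from 3.25 to 4.73 and Siglecf falling from 7.68 to 4.64 FPKM in the authors' deposited table. Lymphocyte markers summed to 0.474 and 0.526, with Ms4a1 and Ncr1 at 0 in both genotypes, Cd3d at 0.309 and 0.178 and Cd79a at 0.0678 and 0.219. Of erythroid and platelet markers Pf4, which macrophages also express, was at 4360 and 4234 and Itga2b at 0.113 and 0.0498 FPKM in the authors' deposited table. The part of these shifts in the AP-1 values was not tested.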

How the data were processed

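RNA of 6 libraries, 3 per genotype, was copied by a Smart-seq2 protocol, per the labels' protocols. The authors' deposited table holds 1 pooled value per gene and genotype, read as FPKM from its column layout. Per the file headers, its further columns hold the log2 fold change, the test statistic (a score), the p-value and the q-value. The submitters' processing notes name mm10, and aligner, annotation and programs were not given in the sources used here. Of 24312 rows 11079 were tested, 13227 not tested and 6 too deeply covered. Depth is unknown, so counting error has no interval here.

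Fold changes were recomputed from the 2 pooled values because a spreadsheet spoilt cells of that column. The deposited q-values equal a Benjamini-Hochberg adjustment of the p-values within 5.28e-07. The smallest p, 5e-05, gives the smallest q, 0.000831, and 667 tested genes share it, so it does not rank them. The normal deviate of a p-value was 1.74 times the test statistic (median of 6485 genes), so the deposited p-values are mostly smaller than the printed errors would give. Taking that statistic as a standard normal z, minimum means of 1 and 10, a q of 0.01, a 1.5-fold minimum, pseudocounts of 0.1, 1 and 5, and 2 other scalings were alternatives. The adjustment was tested on simulated data. The members, lists, tests and alternatives were chosen with earlier results of these data known. Named were all members, up to 3 called genes of each function list with the smallest adjusted p (ties by the test statistic; the most abundant where none was called), the 2 most abundant of each cell type list, and Pim1. Other genes are said to be named with their values known or because a count was small, or overlap or annotate a member. Of the lymphocyte list, 1 gene is not reported here. Gene positions are from GENCODE M21 (GRCm38) and not from the table, whose positions overlap those of 2 of the 10 members although mm10 is named. Software was Python 3.11.15, pandas 2.3.3, numpy 2.4.6, scipy 1.17.1 and matplotlib 3.10.9.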

Additional observations from a re-analysis of the deposited data

How the results depend on the processing

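No paired analysis was possible because the table pools the libraries of a genotype, and for the same reason no library could be left out. Of AP-1 genes 5 were called (4 lower, 1 higher). With a mean of at least 10 these were 3, 2 of them lower. With the deposited statistic taken as a standard normal z 1 was called, lower, and 0 higher. At a q under 0.01 and at a 1.5-fold minimum 3 were called, 0 of them higher. By Benjamini-Hochberg adjustment of the authors' deposited table Fos stayed called under each alternative (adjusted p 0.000762 to 0.00231), whereas Fosb, Junb, Jund and Batf lost their calls with that z (adjusted p = 0.273, 0.151, 0.75 and 0.848); at other settings with a new adjustment, adjusted p was 0.000762 and 0.000796 for Junb, 0.0271 for Jund and 0.0438 and 0.0472 for Batf, and Fosb was below either minimum mean. Other genes named in the report also lost their calls with that z. They were Cebpg, Stat3, Mef2c, Dusp6, Dusp7, Irf4, Gbp2, Arl2, Ccl22, Kit, Siglecf and Xist. The Y-linked genes Ddx3y and Eif2s3y went the other way. They were not called by the deposited q-value but were called lower with that z (log2 fold change -7.96 and -8.47). No fold change of a called AP-1 gene changed sign under the pseudocounts or scalings; that of Fosb was -0.47 and -0.14 at pseudocounts of 1 and 5. Rescaling to the same sum moved the knockout sums to 54.6%, 71.2% and 139% of wild type for Fos, Jun and Batf genes.

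Of all genes 1498 were called (752 higher, 746 lower). With a mean of at least 10 the count was 715 (350 and 365), by that z 366 (204 and 162), at a q under 0.01 973 (458 lower) and at a 1.5-fold minimum 977 (460 lower). Of 153 tested genes of the other function lists 53 were called (29 higher, 24 lower), 35 with a mean of at least 10 (16 higher) and 32 by that z (19 higher, 13 lower). Fewer genes were tested under the minimum means; the cause of the other shifts was not tested. The deposited values carry no depth, which limits how far the low levels of Fosb and Fosl1 can be read.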

Other observations

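Fos and Batf are neighbours. They lie 209 kb apart on chromosome 12 in GRCm38 (GENCODE M21), with Jdp2, another bZIP gene, as the 1 coding gene between them. In the authors' deposited table Fos fell (log2 fold change -1.0) and Batf rose (0.40), and Jdp2 was at 0.347 and 0.421, marked as not tested. Atf3 and Batf3 are 61.4 kb apart on chromosome 1, and Batf3, which directs a class of dendritic cells, was at 25.8 and 22.0 in the authors' deposited table (adjusted p = 0.468). These genes were named with their values known.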
